A study of Mus musculus with 10 samples.

Results

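Elastic fibre and matrix glycoprotein genes were read out in whole lung of mice fed fish oil or coconut oil. The 10 genes were chosen by symbol from the count table. They are the elastic fibre genes Eln and Fbn1, the fibre-associated genes Fbln1, Fbln5 and Ltbp4, the glycoprotein genes Fn1, Sparc and Mgp, and the proteoglycan genes Bgn and Dcn. All 10 were among the 24059 gene symbols of the table, and 9 of them had a count in at least 1 mouse. Bgn and Mgp were also among the genes that the study displayed as differing between the diets in these same mice, so their values here are not independent evidence of a direction.

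The mice were female C57Bl/6, 14 weeks old by the sample labels, and had eaten a semipurified high-fat diet for 8 weeks. The series text gives both diets 19% fat and 0.2% cholesterol by weight. For the fish oil mice (FO, n = 5), menhaden oil supplied 91% of the fat and corn oil the remaining 9%. For the coconut oil mice (CO, n = 5), saturated fat of coconut origin made up 78%, monounsaturated fat of olive origin 13% and polyunsaturated fat of corn origin 9%, again by the series text. The study's methods give somewhat different shares for the coconut oil diet, and its composition list has less cholesterol in the fish oil diet than in the other, so the diets may have differed in cholesterol too. There was no group on a low-fat or standard diet, so each difference below is between 2 high-fat diets. Lungs were flushed with PBS, and each mouse gave 1 library of single-end reads.

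Elastic fibres let the lung recoil after each breath. Elastin is deposited as a soluble precursor on microfibrils built of fibrillin, and fibulins and latent TGF-beta binding proteins guide its deposition and crosslinking. Around these fibres lie fibronectin, to which cells attach through integrins, and small leucine-rich proteoglycans, which bind collagen and growth factors. Matrix Gla protein, which vitamin K-dependent carboxylation makes active, keeps vessel walls and cartilage from calcifying.

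Raw reads were few. Between 229766 and 1124963 reads per mouse had been counted on genes. From 21.8% to 87.0% of them fell on Rn45s, the precursor of ribosomal RNA, which left 45177 to 473254 counts for all other genes. In FO mouse 2 and CO mouse 5, Malat1 took 8.53% and 6.15% of those other counts, against at most 1.05% in the remaining mice. The labels name more than 1 library kit, and the study more than 1 sequencer, without saying which mouse had which, so a part of either in a diet difference cannot be told apart. Values are given as CPM, counts scaled to a common library total with edgeR's TMM factors. A floor of 3 counts in a mouse stood for 2.29 to 19.4 CPM among FO mice and 3.15 to 19.9 CPM among CO mice, and it covers counting error only. The labels do not say whether mice were housed together, and the p-values refer to these 10 mice only. Those of edgeR use a spread estimated with help from all genes fitted, so they can depart from a gene's own spread between mice. Lung identity was plain in the counts, since the epithelial markers Sftpc, Sftpb, Scgb1a1, Ager, Foxj1 and Cldn18 summed to 2032 to 2844 CPM among FO mice and 2282 to 3071 CPM among CO mice.

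Fbln1, which encodes the fibre-associated protein fibulin-1, was listed at 0 in all 10 mice and could not be assessed. The gene lies on chromosome 15 from 85205949 to 85286535 (GRCm38, the build that mm10 names). Of 705 protein-coding genes that RefSeq places on chromosome 15 and that the table lists, 0 had a count in any mouse. On the other autosomes and the X chromosome, 56.1% to 78.3% of such genes had a count. The zero of Fbln1 is therefore shared by its whole chromosome in this table and gives no level. The same held for Sdc2, Itga5, Acvrl1 and Col2a1, which belong to gene lists used below and lie on that chromosome.

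The promoters of Bgn and Sparc are printed because they are the members that passed the count filter and have an entry in the RefSeq promoter table, and because Bgn was called between the diets while Sparc was not. Each is the 250 bases before the annotated start, 5′ to 3′ on the strand of the gene (GRCm38.p6). The Bgn window is chrX:73483351-73483600 on the plus strand and the Sparc window is chr11:55420081-55420330 on the minus strand, inside the longer span that GENCODE gives Sparc. Capitals mark the string GGCGGG on either strand, where neighbouring matches share bases.
Bgn: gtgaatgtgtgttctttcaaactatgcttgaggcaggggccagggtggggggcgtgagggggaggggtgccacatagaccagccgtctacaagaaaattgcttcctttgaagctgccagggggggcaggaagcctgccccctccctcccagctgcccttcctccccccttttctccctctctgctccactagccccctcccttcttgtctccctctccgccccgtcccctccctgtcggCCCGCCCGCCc
Sparc: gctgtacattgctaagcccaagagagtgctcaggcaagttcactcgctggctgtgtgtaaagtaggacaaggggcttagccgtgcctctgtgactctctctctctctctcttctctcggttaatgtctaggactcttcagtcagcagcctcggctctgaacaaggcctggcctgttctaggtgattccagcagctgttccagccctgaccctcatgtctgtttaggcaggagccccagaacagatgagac
The Bgn window held GGCGGG at 2 overlapping positions just before the start, and the Sparc window held 0. GGCGGG occurs in 32.6% of 27025 promoter windows of the same length. Neither window held TATAAA, found in 13% of all windows, or CCAAT, found in 34.5%. Bases G and C made up 64.4% of the Bgn window and 54% of the Sparc window, against a median of 52% over all windows. These matches describe letters only, and nothing in the counts bears on binding at them.

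Mgp was by far the most abundant member, and Eln, Fn1, Ltbp4, Fbn1 and Fbln5 formed a low group. Levels between genes were compared as CPM per kb of exon, with exon lengths from GENCODE. Mgp had 2045 ± 497 CPM per kb (SD, n = 10 mice over both diets) and exceeded Sparc, the next gene, in 10 of 10 mice without overlap of their ranges. Sparc had 95.8 ± 19.97 CPM per kb, Bgn 69.9 ± 22.9 and Dcn 44.6 ± 11.8. The ranges of Sparc and Bgn overlapped, as did those of Bgn and Dcn. A gap of 10.3 times in mean level per kb then separated Dcn from Eln, again without overlap. Eln had 4.34 ± 3.29 CPM per kb, Fn1 3.37 ± 2.07, Ltbp4 2.11 ± 1.38, Fbn1 1.44 ± 0.755 and Fbln5 0.835 ± 0.431. Each neighbour in this lower group overlapped the next, so their order did not exceed the spread between mice. Of the 10657 counts on all members, 65.8% were on Mgp, which ranked 17 by mean CPM among 14161 genes with any count.

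**Figure D1:**
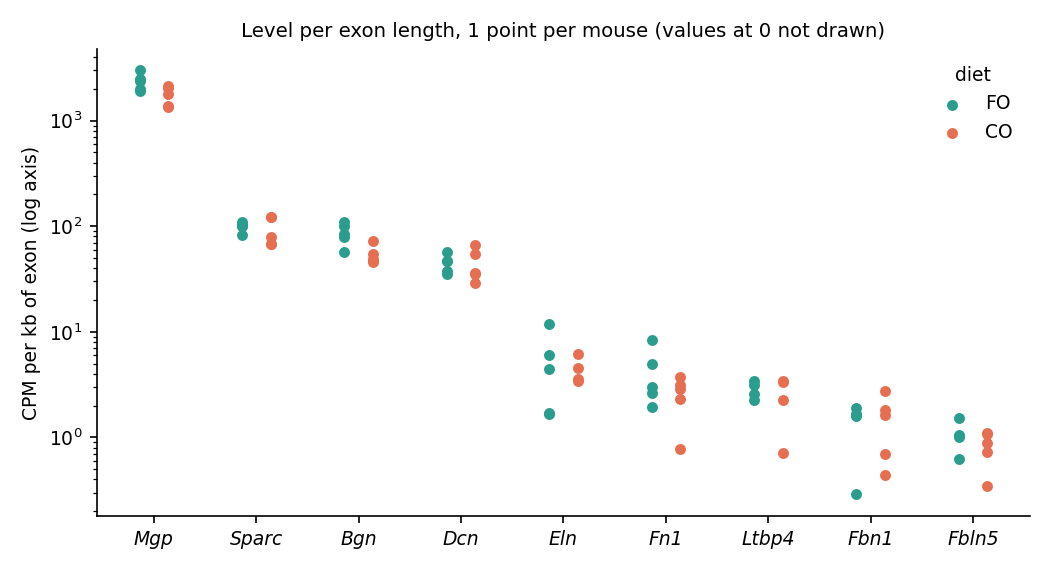
Level of each member in CPM per kb of exon (log axis) with 1 point per mouse, FO in green and CO in orange; values at 0 are not drawn. Mgp lies between 1340 and 2993 CPM per kb in every mouse, and Eln, Fn1, Ltbp4, Fbn1 and Fbln5 lie below the other members in all mice.

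The comparison asked whether lung matrix transcripts differed between fish oil and coconut oil. Bgn was the only member past the threshold, an unadjusted p-value under 0.05 in edgeR's quasi-likelihood test, and it was higher in the FO group. Of the 10 members, 5 (Fn1, Sparc, Mgp, Bgn and Dcn) passed the filter on low counts, and 1 of these 5 was called. Of all 2438 genes tested 2.91% were called, 1.68% higher and 1.23% lower in FO. After Benjamini-Hochberg adjustment 0 of the 5 members passed 0.05 in edgeR, and so did 0 of the 71 genes called, while 0 members passed in DESeq2 or limma-voom, where 1 and 0 of the 2438 genes did. The median log2 fold change was 0.44 over the 5 members that passed and 0.0034 over all genes tested, given as a description because so few members passed. When the 14161 genes with any count were fitted, 1 of 9 members (Bgn) was called, against 4.15% of those genes (2.58% higher, 1.57% lower), and after adjustment 0 members passed, against 0.00706% of the genes. A log2 fold change above 0 was found for 8 of the 9 members and 54% of those genes, and for 5 of the 5 that passed the filter and 50.6% of the genes tested. The FO and CO groups overlapped for all 9 members with counts, and they overlapped for all but 0.41% of genes tested.

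**Figure D2:**
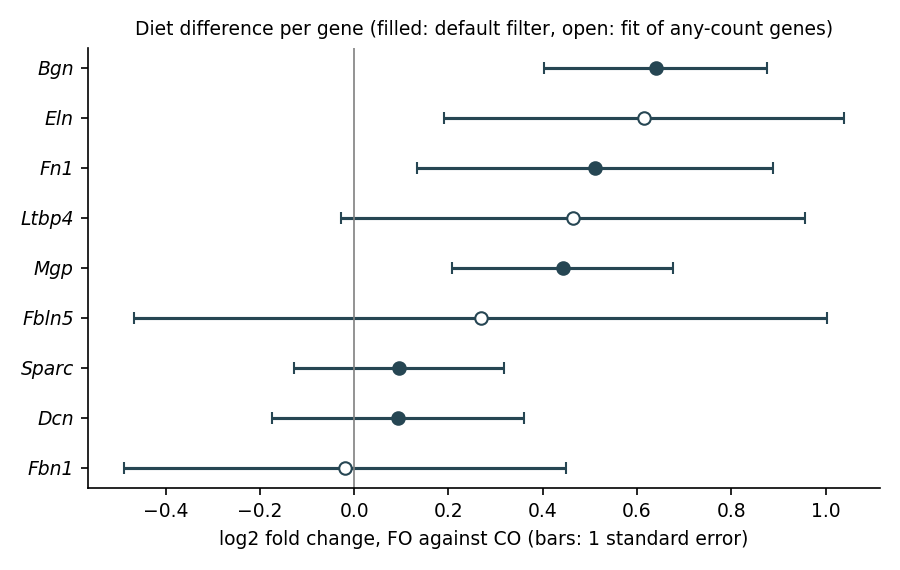
Log2 fold change of FO against CO for the 9 members with counts, with bars of 1 standard error; filled points passed the default filter and open points were fitted among any-count genes. Bgn stands at 0.64 and Fbn1 at -0.02, and scaling by library size alone turns Bgn, Fn1, Sparc, Dcn and Fbln5 negative.

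Bgn encodes biglycan, a small leucine-rich proteoglycan of the interstitial matrix that binds collagen and TGF-beta. It lies on the X chromosome from 73483602 to 73495933, and GENCODE annotates no overlapping gene. FO mice 1 to 5 had 192, 137, 265, 204 and 242 CPM of Bgn, from 167, 179, 41, 165 and 74 reads. CO mice 1 to 5 had 133, 117, 112, 175 and 114 CPM, from 20, 22, 51, 167 and 87 reads. FO mice 1, 3, 4 and 5 lay above every CO mouse, and FO mouse 2 lay below CO mouse 4. Fish oil mice averaged 208 ± 49.3 CPM and coconut oil mice 130.3 ± 26.5 CPM (SD, n = 5 per diet). The log2 fold change was 0.64 (standard error 0.24), a 1.56-fold higher level, with an unadjusted edgeR p of 0.0143 and an adjusted edgeR p of 0.998. The two-sided exact permutation p was 0.0159, where the smallest that 5 mice against 5 allow is 0.0079. The unadjusted p stayed between 0.0027 and 0.047 with each mouse left out in turn. It was 0.857 with library size alone in place of TMM, where Rn45s is a large part of the total, the median gene moved by -0.55 and the log2 fold change of Bgn was -0.12.

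**Figure D3:**
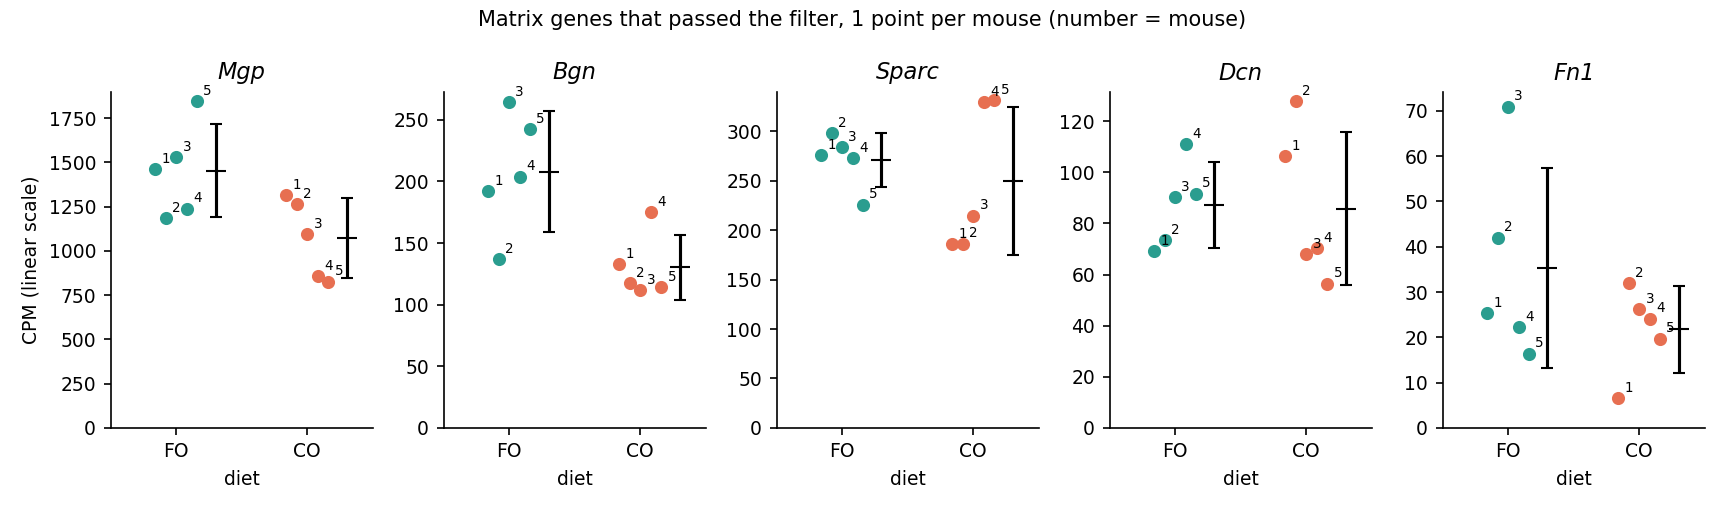
CPM (linear scale from 0) of the 5 members that passed the filter, with 1 numbered point per mouse (FO green, CO orange) and the mean and SD of each diet in black. All 5 FO mice lie above the CO median for Bgn, Mgp and Sparc, and the groups overlap in every panel; library size alone turns the fitted differences of Bgn, Sparc, Dcn and Fn1 negative.

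Dcn encodes decorin, the closest relative of biglycan among the members and a regulator of collagen fibril width. It lies on chromosome 10 from 97479609 to 97518143. The FO mice had 69.0, 73.4, 90.3, 111 and 91.7 CPM of Dcn, in the order of their numbers, and the CO mice 106, 128, 67.9, 70.3 and 56.4 CPM. The groups lay within the same range. Averages were 87.1 ± 16.8 CPM for FO and 85.8 ± 30.04 CPM for CO (SD, n = 5 per diet). The log2 difference was 0.09 (standard error 0.27, unadjusted edgeR p = 0.730, two-sided exact permutation p = 0.817). The ratio of Bgn to Dcn reads within a mouse needs no scaling between libraries. It was 2.78, 1.87, 2.93, 1.83 and 2.64 in FO mice 1 to 5 and 1.25, 0.917, 1.65, 2.49 and 2.02 in CO mice 1 to 5. On the log2 scale the ratio was higher in the FO group by 0.59 (two-sided exact permutation p = 0.0714, adjusted p = 0.423 over the 10 member pairs). None of the 10 pairs had an unadjusted exact permutation p under 0.05 for its ratio, and that of Bgn to Dcn was the lowest. These ratios were chosen after the values had been seen.

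Mgp encodes matrix Gla protein, a small calcification inhibitor that also binds BMP ligands and is made by smooth muscle and cartilage cells. It lies on chromosome 6 from 136872435 to 136875823. FO mice 1 to 5 had 1464, 1185, 1529, 1239 and 1847 CPM, and CO mice 1 to 5 had 1316, 1262, 1093, 858 and 827 CPM. All 5 FO mice lay above the CO median, while FO mice 2 and 4 lay below CO mice 1 and 2. Fish oil mice averaged 1453 ± 264 CPM and coconut oil mice 1071 ± 225 CPM (SD, n = 5 per diet). The log2 fold change was 0.44 (standard error 0.23), with an unadjusted edgeR p of 0.0752. The two-sided exact permutation p was 0.0476, a level that 3.53% of all genes tested also passed. The call depended on the test, since the unadjusted p was 0.0442 in DESeq2, 0.0244 in limma-voom and 0.0417 when each gene had to reach 10 counts in all mice. Without FO mouse 2 it was 0.0449 in edgeR, and over all 10 fits without a mouse it ranged from 0.0449 to 0.199. It was 0.143 with the replicate block, and 0.976 with library size alone, where the log2 fold change of Mgp was 0.019.

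Sparc encodes osteonectin, a collagen-binding glycoprotein found in fibroblasts, endothelium and platelets. It lies on chromosome 11 from 55394500 to 55423183. FO mice 1 to 5 had 276, 298, 284, 273 and 226 CPM, and CO mice 1 to 5 had 186, 186, 215, 329.6 and 332 CPM. The CO group was split, with CO mice 4 and 5 above every FO mouse and CO mice 1 to 3 below every FO mouse. Fish oil mice averaged 271 ± 27.2 CPM and coconut oil mice 249.8 ± 74.9 CPM (SD, n = 5 per diet). The log2 difference was 0.09 (standard error 0.22, unadjusted edgeR p = 0.676, two-sided exact permutation p = 0.421).

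Within the diets, Mgp and Sparc moved in opposite directions from mouse to mouse. After the mean of each diet was subtracted, log2 CPM of Mgp and Sparc had Pearson's r = -0.89 and Spearman's rho = -0.88 over the 10 mice (permutation p = 7e-04 and 0.0016; adjusted p = 0.007 and 0.0161 over the 10 pairs). Without the 2 mice farthest from the median of Sparc, r was -0.84. Without FO mouse 2 and CO mouse 5, r was -0.87 (permutation p = 0.0026, adjusted p = 0.026), while rho was -0.76 (permutation p = 0.0374) with an adjusted p of 0.374. Without the centring r was -0.46 (permutation p = 0.181). It was 1 of the 10 pairs of tested members with an adjusted p under 0.05. Sparc and Dcn came next, with r = -0.72 and rho = -0.72 (permutation p = 0.0201 and 0.0232; adjusted p = 0.1004 and 0.116), and r = -0.60 without 2 mice. Depth moved with these genes. Centred in the same way, the log2 of the counts outside Rn45s had r = -0.85 and rho = -0.83 with Mgp (permutation p = 0.0040 and 0.0045; adjusted p = 0.0200 and 0.0227 over 5 genes), and r = -0.93 without 2 mice. With Sparc it had r = 0.71 and rho = 0.70 (permutation p = 0.0269 and 0.0302; adjusted p = 0.0648 and 0.0756), and r = 0.87 without 2 mice. The part of depth in the diet comparison was not tested. The FO group was the deeper group, with a median of 235781 counts outside Rn45s against 136211 in the CO group.

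**Figure D4:**
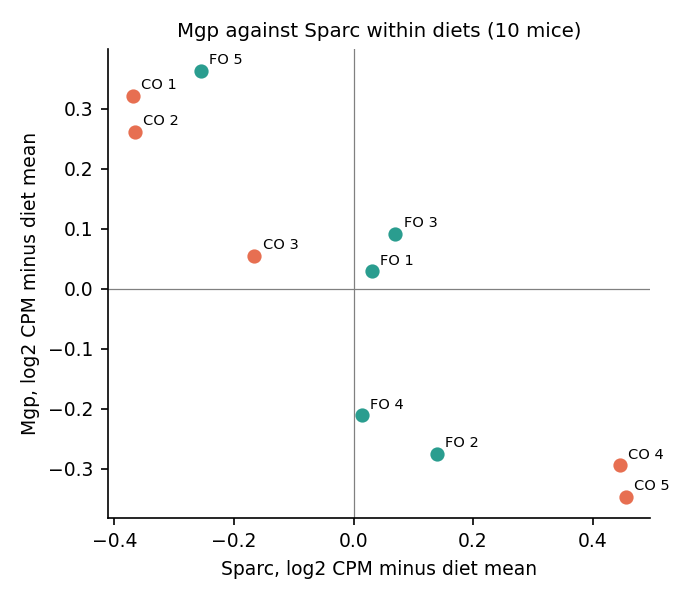
Deviation of each mouse from its diet's mean in log2 CPM, Sparc on the horizontal and Mgp on the vertical axis, FO in green and CO in orange. CO mice 1 and 2 and FO mouse 5 stand at the upper left and CO mice 4 and 5 at the lower right (Pearson's r = -0.89, n = 10).

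Fn1 encodes fibronectin, the adhesive glycoprotein that integrins bind. Its position is chromosome 1, 71585520 to 71653200, shared in part with the antisense gene Apol7d, from which unstranded reads could not be told apart. FO mice 1 to 5 had 25.3, 42.0, 71.0, 22.2 and 16.4 CPM, and CO mice 1 to 5 had 6.65, 31.96, 26.3, 24.1 and 19.7 CPM. The highest value, in FO mouse 3, came from 11 reads and the lowest, in CO mouse 1, from 1 read. Averages were 35.4 ± 22.1 CPM for FO and 21.7 ± 9.53 CPM for CO (SD, n = 5 per diet). The log2 difference was 0.51 (standard error 0.38, unadjusted edgeR p = 0.192, two-sided exact permutation p = 0.286).

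Eln, Fbn1, Ltbp4 and Fbln5 had too few reads for the filter, and none was called. Their values come from the edgeR run on the 14161 genes with a read in any mouse. The filter used library totals that include Rn45s. With Rn45s left out, 7 members passed in place of 5, and 1 of the 7 was called, against 106 of 3484 genes. Eln, which encodes the elastin precursor tropoelastin and lies on chromosome 5 from 134702593 to 134747323, overlaps the antisense gene Gm30003. It had 20, 60, 1, 14 and 2 reads in FO mice 1 to 5 and 2, 0, 8, 13 and 18 reads in CO mice 1 to 5. FO mouse 2 alone held 60 of the 97 reads of its group, and FO mice 3 and 5 and CO mice 1 and 2 were at or under the floor. The log2 fold change was 0.61 (standard error 0.42, unadjusted edgeR p = 0.148, two-sided exact permutation p = 0.540). It ranged from 0.075 to 0.95 with each mouse left out, and the unadjusted p was 0.0485 without CO mouse 5.

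Fbn1 encodes fibrillin-1, the main microfibril protein, and lies on chromosome 2 from 125300594 to 125507993, where it overlaps Gm9913 on the other strand. FO mice 1 to 5 had 3, 25, 3, 16 and 7 reads, and CO mice 1 to 5 had 5, 1, 10, 8 and 15. Relative to depth the group means were close, at 16.9 ± 7.68 CPM for FO and 17.7 ± 11.2 CPM for CO (SD, n = 5 per diet). The log2 fold change was -0.02 (standard error 0.47, unadjusted edgeR p = 0.968, two-sided exact permutation p = 0.984).

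**Figure D5:**
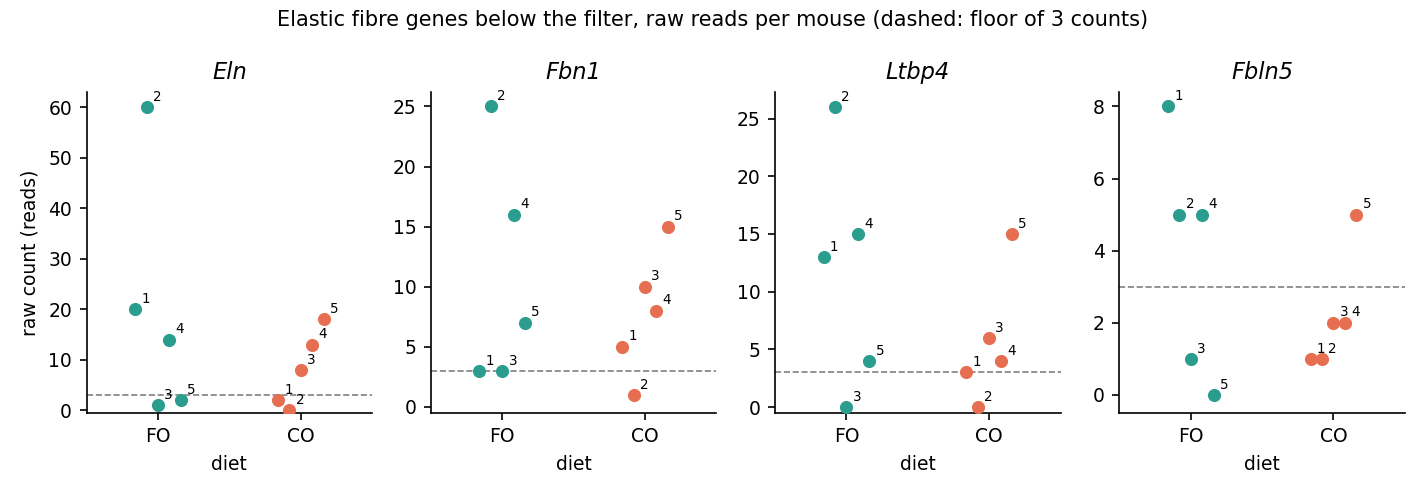
Raw reads of Eln, Fbn1, Ltbp4 and Fbln5 with 1 numbered point per mouse and a dashed line at the floor of 3 counts. FO mouse 2, the mouse with the most counts outside Rn45s, has the highest value for Eln, Fbn1 and Ltbp4, and the raw reads are not scaled for depth.

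Ltbp4 encodes a latent TGF-beta binding protein needed for elastic fibre assembly in lung and lies on chromosome 7 from 27305136 to 27337692. FO mice 1 to 5 had 13, 26, 0, 15 and 4 reads, and CO mice 1 to 5 had 3, 0, 6, 4 and 15. Of the 10 mice, 3 were at or under the floor. The log2 fold change was 0.46 (standard error 0.49, unadjusted edgeR p = 0.347, two-sided exact permutation p = 0.810). Fbln5 encodes fibulin-5, which ties elastin to microfibrils and to cell surface integrins, and lies on chromosome 12 from 101746565 to 101819055. It had 8, 5, 1, 5 and 0 reads in FO mice 1 to 5 and 1, 1, 2, 2 and 5 in CO mice 1 to 5. The floor was not exceeded in 6 of the 10 mice, and the log2 fold change was 0.27 (standard error 0.74, unadjusted edgeR p = 0.716, two-sided exact permutation p = 0.841).

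Other genes of the same matrix were read from 6 lists, and 2 of their 28 genes that passed the filter were called, both higher in the FO group. Ctgf and Cd44 were these 2 genes. Of all 2438 genes tested, 2.91% were called and 1.68% were called higher. In the fit of genes with any count, 7 of 112 list genes were called, 5 of them higher and the rest lower. Of all genes in that fit 4.15% were called, 2.58% higher and 1.57% lower. Among these calls only Mmp8, with 14 reads over all mice, had a two-sided exact permutation p under 0.05 (0.0476). For Ctgf, Cyr61, Spp1 and Itgav, called higher, and Lama5, called lower, it was 0.159 to 0.302. Serpina1a, also called lower, had 3 reads over all mice. Ctgf, a matricellular protein that TGF-beta and mechanical stretch induce, had 35.7, 32.1, 38.7, 103 and 62.2 CPM in FO mice 1 to 5 and 33.2, 47.9, 43.8, 20.995 and 3.94 CPM in CO mice 1 to 5. FO mice 4 and 5 stood above every CO mouse, and the rest overlapped. Its log2 difference was 1.07 (standard error 0.49, unadjusted edgeR p = 0.0426, adjusted edgeR p = 0.998, two-sided exact permutation p = 0.159). It was 0.60 without FO mouse 4 and 0.68 without CO mouse 5, where the call was lost. The call was also lost without FO mouse 5, CO mouse 1 or CO mouse 4, where the log2 difference stayed at 1.03, 1.09 and 0.97. Cd44, the hyaluronan receptor, averaged 39.0 ± 13.4 CPM for FO and 23.7 ± 6.29 CPM for CO (SD, n = 5 per diet). Its log2 difference was 0.73 (standard error 0.32, unadjusted edgeR p = 0.0339, adjusted edgeR p = 0.998, two-sided exact permutation p = 0.0397). Its call was lost in 6 of the 10 fits that left out a mouse, namely FO mouse 1, 3 or 4 or CO mouse 2, 4 or 5, where the log2 difference was 0.61 to 0.71.

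Of 20 genes for elastic fibre assembly, which include lysyl oxidases, microfibril proteins and TGF-beta ligands, 0 passed the filter, and 0 of the 19 with any read were called. Among 18 proteoglycan genes 3 passed and 0 were called, with a median log2 fold change of -0.12. Ogn, which encodes osteoglycin of the same family as biglycan and decorin, differed by 0.31 on the log2 scale (standard error 0.32) and Gpc3, a glypican gene, by -0.14 (standard error 0.31). Of 29 matricellular and basement membrane genes 8 passed, 1 (Ctgf) was higher, 0 were lower and the median was 0.30. In the fit of genes with any read, 3 of the 29 were called higher and 1 lower. Of 18 proteases and inhibitors 4 passed and 0 were called, with a median of 0.11. Among the 17 with any read, 1 was called higher and 1 lower. Timp2 and Timp3, inhibitors of matrix metalloproteinases, had log2 fold changes of -0.06 (standard error 0.19) and 0.20 (standard error 0.21). Of 17 matrix receptor genes 6 passed and 1 (Cd44) was higher, with a median of 0.29. Among the 16 with any read, 1 gene other than Cd44 was called higher. Of 16 genes for gamma-carboxylation and BMP signalling, 7 passed and 0 were called, with a median of 0.16. The genes of the enzymes for carboxylation were not among these 7, so the median does not cover that step. Bmpr2, a BMP receptor, and Id3, a target of BMP signalling, had log2 fold changes of -0.05 (standard error 0.27) and 0.0028 (standard error 0.28).

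The lung is a mixture of cells, and in bulk RNA fewer cells of a type and less RNA per cell cannot be told apart. Of 6 smooth muscle markers 3 passed the filter, all 3 with a log2 fold change above 0, against 50.6% of genes tested. Of these 3, 1 was called, against 2.91% of genes tested (1.68% higher). It was Acta2 for smooth muscle actin, higher in FO by 0.99 on the log2 scale (standard error 0.37, unadjusted edgeR p = 0.0144, two-sided exact permutation p = 0.119). The 6 smooth muscle markers summed to a median of 151 CPM (range 88.6 to 313) for FO and 113 CPM (85.0 to 161) for CO. The part of smooth muscle in the Bgn result was not tested. Fibroblast markers, with 6 of 8 genes tested and 0 called, summed to a median of 894 CPM (566 to 1161) for FO and 771 CPM (546 to 1236) for CO. Of 6 cartilage markers, Acan, Col2a1, Col9a1, Comp and Matn1 were listed at 0 in every mouse, and Col2a1 lies on chromosome 15. The remaining marker, Chad, had 8 reads over all mice and did not pass the filter. Cartilage markers thus summed to a median of 1.53 CPM (0 to 6.45) for FO and 0 CPM (0 to 2.19) for CO. Platelet markers, for a cell type that also holds Sparc, summed to a median of 32.2 CPM (25.2 to 62.2) for FO and 15.3 CPM (7.87 to 53.2) for CO, and 0 of 5 passed the filter. Endothelial markers, with 4 of 6 tested and 0 called, summed to a median of 327 CPM (284 to 800) for FO and 437 CPM (292 to 810) for CO. Cardiac muscle markers summed to a median of 96.8 CPM (52.4 to 216) for FO and 42.6 CPM (26.6 to 139) for CO. Of these 6 genes 1 passed the filter and was not called. Tnnt2 and Tnni3, which encode heart troponins, were called higher among the genes with any read. Their two-sided exact permutation p-values were 0.357 and 0.0238. In that fit, 3 of 6 smooth muscle, 1 of 5 platelet and 1 of 6 macrophage markers were called higher too. Of 6 epithelial markers 1 was called lower, and of all genes with any read 4.15% were called. Two-sided exact permutation p-values were 0.556 for Myh11, 0.119 for Acta2, 0.0476 for Actg2, 0.167 for Gp9 and 0.0635 for Cd68. Actg2, Gp9 and Cd68 had 11, 6 and 21 reads over all mice. The epithelial marker was Cldn18, with an exact permutation p of 0.722 and an unadjusted edgeR p of 0.102 under the default filter. Its highest CO value was 777 CPM, against a CO mean of 255 CPM. The part of cardiac muscle in the Bgn result was not tested. Macrophage markers summed to a median of 77.2 CPM (56.8 to 123) for FO and 59.1 CPM (23.1 to 86.6) for CO, and mesothelial markers to 9.17 CPM (2.30 to 16.1) and 6.65 CPM (4.20 to 26.6).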

How the data were processed

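Lung RNA of 10 mice was sequenced, and the authors deposited a table of unnormalized read counts by gene symbol, with a column for each mouse. Single-end reads had been aligned with STAR 2.4.0f1 to mm10, sorted with SAMtools 0.1.19 and counted with htseq-count. The annotation and strand setting are not given in the sources used here. Diets were taken from the sample titles.

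Diets were compared by the quasi-likelihood test of edgeR 4.0.16 under R 4.3.3, with TMM factors and the default filter (10 as smallest count, 15 as smallest total), which left 2438 genes. Members below the filter were read from a fit of the 14161 genes with any count. The study's threshold, an unadjusted p under 0.05, was kept beside Benjamini-Hochberg adjusted p-values. Single genes were also tested by exact permutation of the 252 assignments of log2 CPM (prior count 2), and correlations with 100000 permutations. Members and lists were chosen with earlier results of these data known. The text names all members, the called genes of each list (or the 2 most abundant tested ones) and the gene most like each tested member, which for Fn1 is not reported here. Not every marker gene that this rule allows is printed. Acan, Col9a1, Comp, Matn1, Sdc2, Itga5, Acvrl1 and Col2a1 were named after their zeros had been seen. Tnnt2, Tnni3, Chad, Mmp8, Cyr61, Spp1, Itgav, Lama5, Serpina1a, Myh11, Actg2, Gp9, Cd68 and Cldn18 were named after their values had been seen. Exon lengths and positions came from GENCODE M21 and promoters from RefSeq GRCm38.p6, which matched 22549 of 24059 symbols for the count by chromosome and gave windows for 6 of the 10 members. DESeq2 1.42.0 and limma 3.58.1 served as alternatives. Standard errors are the log2 fold change over the root of its F statistic. The fits were tested on simulated data.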

Additional observations from a re-analysis of the deposited data

Results flagged for a closer look

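Fbn1 in FO mouse 1 stood apart from the other FO mice, with 3.45 CPM from 3 reads against 19.1 to 22.9 CPM in the remaining 4. The gap was 0.804 of the group's range, above Dixon's value of 0.71 for 5 samples. It was the only such case among 18 groups of 5 mice (9 members in each diet), where chance gives about 0.9. Without FO mouse 1 the log2 fold change of Fbn1 was 0.29 in place of -0.02, with no call in either, and the cause was not tested.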

How the results depend on the processing

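Bgn kept its direction and stayed under an unadjusted p of 0.05 in 20 of 21 alternatives, those that left out a mouse included. Library size alone, where Rn45s is a large part of the total and the median gene moved by -0.55, reversed Bgn to -0.12, Sparc to -0.67, Dcn to -0.40, Fn1 to -0.063 and Fbln5 to -0.18 (log2 fold changes). With Rn45s left out first, library size alone gave Bgn 0.65, and that alternative was added after seeing the data. Fbln5 was -0.12 in limma-voom. Fbn1 was 0.020 without FO mouse 2 and CO mouse 5 and 0.018 with Rn45s left out. With each mouse left out, Fbn1 ranged from -0.25 to 0.29, Fbln5 from -0.10 to 0.59, Sparc from -0.0080 to 0.23 and Dcn from -0.062 to 0.25, so their directions are not settled at this depth.

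Calls over all genes numbered 71, and 138 with DESeq2 on genes with any count (added after seeing the data), 36 with library size alone (1 of them higher), 587 with any count, 15 of the 633 genes that reached 10 counts in all mice, 117 in limma-voom and 54 to 154 with a mouse left out. The highest, 154, was without FO mouse 2. Members called numbered 1 of 5 in the main fit. Bgn and Mgp were called, 2 of 5 members, in DESeq2 (62 of 2438 genes called) and in limma-voom (117 of 2438). The same 2 were called of 9 members in DESeq2 with any count (138 of 14161 genes). They were also called of 4 members at 10 counts in all mice (15 of 633 genes). With library size alone 0 of 5 members were called (36 of 2438 genes). With a mouse left out 1 to 2 were, where 2 of 4 was without FO mouse 2 (154 of 2120 genes). Genes called in the 6 other lists numbered 2, but 1 in DESeq2 with either filter and 0 with library size alone. They numbered 7 of 112 with any count (5 of them higher) and 0 at 10 counts in all mice. With Rn45s left out and library size alone 1 was called, and with a mouse left out 0 to 3 were. Exact permutation p-values were under 0.05 for 2 of 9 members (Bgn and Mgp), against 3.53% of the 2438 genes tested. With library size alone 0 members were under 0.05. Without FO mouse 2 and CO mouse 5 it was 1, and with a mouse left out 1 to 2. These permutation alternatives were added after seeing the data. Without centring on the diet means 0 member pairs passed adjustment, against 1 with it.

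Same-numbered mice share only a number. The correlation of their deviations averaged -0.12 across the 5 pairs, from -0.41 to 0.03, and 0.03 across the 20 pairs of unlike number. With the replicate block 55 genes were called, 1 member (Bgn) and 1 gene of the other lists, Fbn1 was 0.095, and 0 members had an exact p under 0.05 within pairs, where 5 pairs cannot go below 0.0625.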

Other observations

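For Bgn, Mgp, Dcn and Sparc, the gene whose log2 CPM followed it most closely within the diets was sought among 2433 tested genes outside the members. These are the highest of many correlations over 10 mice that share libraries and depth, so they are given as a description with no p-value. Bgn was followed most closely by S100a6, which encodes a small calcium-binding protein (Pearson's r = 0.93, Spearman's rho = 0.95, and r = 0.83 without the 2 mice farthest from the median of Bgn). For Mgp the gene was Gyg, which encodes glycogenin (r = 0.96, rho = 0.92, and 0.94 without 2 mice). For Dcn it was the ribosomal protein gene Rpl27a (r = 0.97, rho = 0.88, and 0.94) and for Sparc it was Phactr2 (r = 0.92, rho = 0.87, and 0.79). The centred r between Bgn and Mgp was 0.24 (rho = 0.27, permutation p = 0.495 and 0.447, adjusted p = 0.821 and 0.727 over the 10 pairs).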
